A study of Homo sapiens with 6 samples.

Results

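The genes described here are those of the voltage-gated and potassium channels: potassium channel genes (symbols that begin with KCN), voltage-gated sodium channel genes (SCN) and voltage-gated calcium channel genes (CACNA, CACNB and CACNG). They were chosen by gene symbol and by a minimum of 30 counts in total over the 6 libraries, which left 83 genes of the 56832 rows of the count tables: 60 potassium, 8 sodium and 15 calcium channel genes. The libraries hold poly(A) RNA of HEK293T cells, a human embryonic kidney epithelial line, in which the GLO1 gene had been knocked out. The 3 libraries of the MGO group, numbered 1, 3 and 4, came from knockout cells that had 0.2 mM methylglyoxal (MGO) in their medium overnight. The 3 untreated libraries, numbered 1, 2 and 4, came from knockout cells without added MGO, so both groups share the knockout. No library of cells with an intact GLO1 gene was analysed here. GLO1 encodes glyoxalase 1, which begins the detoxification of MGO, a reactive dicarbonyl formed as a side product of glycolysis. The series is about glycation of histone H3 and its crosstalk with the promoter mark H3K4me3. The labels name no clone and do not tie the libraries to separate cultures. The p-values therefore cover the spread between libraries only, and that spread may be technical.

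Voltage-gated channels open when the membrane potential changes, and let potassium, sodium or calcium ions through. A large alpha subunit forms the pore, alone or with others. Inward rectifier (KCNJ) and two-pore (KCNK) potassium channels have no voltage sensor of that kind and set the resting potential. Smaller auxiliary subunits tune the gating of the pore subunits or bring them to the cell surface. Most of these genes are best known in nerve, heart, muscle and endocrine cells. Kidney epithelial cells use potassium channels for salt transport and for their resting potential, and HEK293 lines are widely used as hosts for cloned channels because their own currents are small. In bulk RNA of this kind, fewer cells of one type and less RNA per cell cannot be told apart.

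Totals were 19195920 to 21544749 counts in MGO libraries and 41002134 to 45910040 counts in untreated libraries, so depth is split as treatment is, and their effects cannot be told apart. Mitochondrial genes held 5.34% to 8.17% of the counts in MGO libraries and 4.20% to 5.42% in untreated libraries. Levels are TMM-scaled CPM (counts relative to the total of the library, scaled for its composition), given for MGO libraries in the order 1, 3 and 4 and for untreated libraries in the order 1, 2 and 4. RNA of the targeted gene, GLO1, was at 134.5, 141.8 and 144.8 CPM in MGO libraries, against 51.0, 46.9 and 46.2 CPM in untreated libraries. It was higher in every MGO library than in every untreated one (log2 fold change 1.55), and a level of RNA does not check the knockout, which both groups carry. All 7 marker genes of the kidney epithelial line reached 1 CPM on average, with sums of 1584 to 1599 CPM in MGO libraries and 1257 to 1309 CPM in untreated libraries. Of 7 neuronal markers 2 did, with sums of 12.0 to 12.9 CPM in MGO libraries and 12.1 to 12.8 CPM in untreated libraries, and STMN2 was at 0 in every library. Of 6 muscle markers ACTA1 alone did, with sums of 3.54 to 4.97 CPM in MGO libraries and 0.564 to 0.846 CPM in untreated libraries. Of the 4 fibroblast markers 1 did, with sums of 10.9 to 12.8 CPM in MGO libraries and 23.3 to 24.5 CPM in untreated libraries. No blood or endothelial marker did, and those sums stayed under 1 CPM in every library. The part of these marker levels, of depth and of the mitochondrial share in the results below was not tested, except where values at equal depth are given.

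Potassium channel genes were lower as a group in MGO-treated cells, calcium channel beta subunits were higher, and most of the tested sodium channel genes were lower. Of the 83 genes, 77 had enough counts to be tested, and edgeR's quasi-likelihood test at an adjusted p of 0.05 called 37 lower and 19 higher in MGO cells, with 21 not called. That is 72.7% of the tested channel genes, in a comparison in which the same rule called 83.1% of all 17415 tested genes and 75.2% of the 7679 with a mean under 10 CPM, where 67 of the 77 channel genes lie. The lower calls made up 48.1% of the tested channel genes, against 41.2% of all tested genes and 34.1% of those under 10 CPM. The higher calls made up 24.7%, against 41.8% and 41.1% in the same sets. At least 2-fold lower were 24 channel genes, or 31.2%, against 16.7% of all tested genes and 20.5% of those under 10 CPM. At least 2-fold higher were 14, or 18.2%, against 19.8% and 30.5% in the same sets. At least 4-fold lower were 8 channel genes, or 10.4%, against 3.76% of all tested genes and 5.59% of those under 10 CPM. The median log2 fold change, MGO over untreated, was -0.40 for the tested channel genes, 0.01 for all tested genes and 0.11 for those under 10 CPM. Whether these shares differ beyond chance was not tested, because the genes were chosen with earlier results of these data known.

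By ion, 28 of 55 tested potassium channel genes were lower and 13 higher, with a median log2 fold change of -0.53. Of 7 tested sodium channel genes 4 were lower and 1 higher, with a median of -0.41. Of 15 tested calcium channel genes 5 were lower and 5 higher, with a median of 0.12. When the reads of the untreated libraries were thinned to the mean total of the MGO libraries, 25 of 44 tested potassium channel genes were lower and 10 higher, against 6555 lower and 6831 higher of 16120 tested genes in all. Pore-forming subunits had 30 lower and 13 higher calls among 56 tested genes, and auxiliary subunits 7 lower and 6 higher among 21. Lower calls made up 53.6% of pore-forming and 33.3% of auxiliary genes, against 41.2% of all tested genes. Higher calls made up 23.2% and 28.6%, against 41.8% of all tested genes. The counts by ion and by class are to be read against the same shares. All 6 values of the 2 groups were apart for 61 of the 83 genes: every MGO library was below every untreated library for 39 genes and above it for 22. Among tested genes, the groups did not overlap for 77.9% of channel genes, against 83.5% of all genes and 76.2% of those under 10 CPM.

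**Figure D1:**
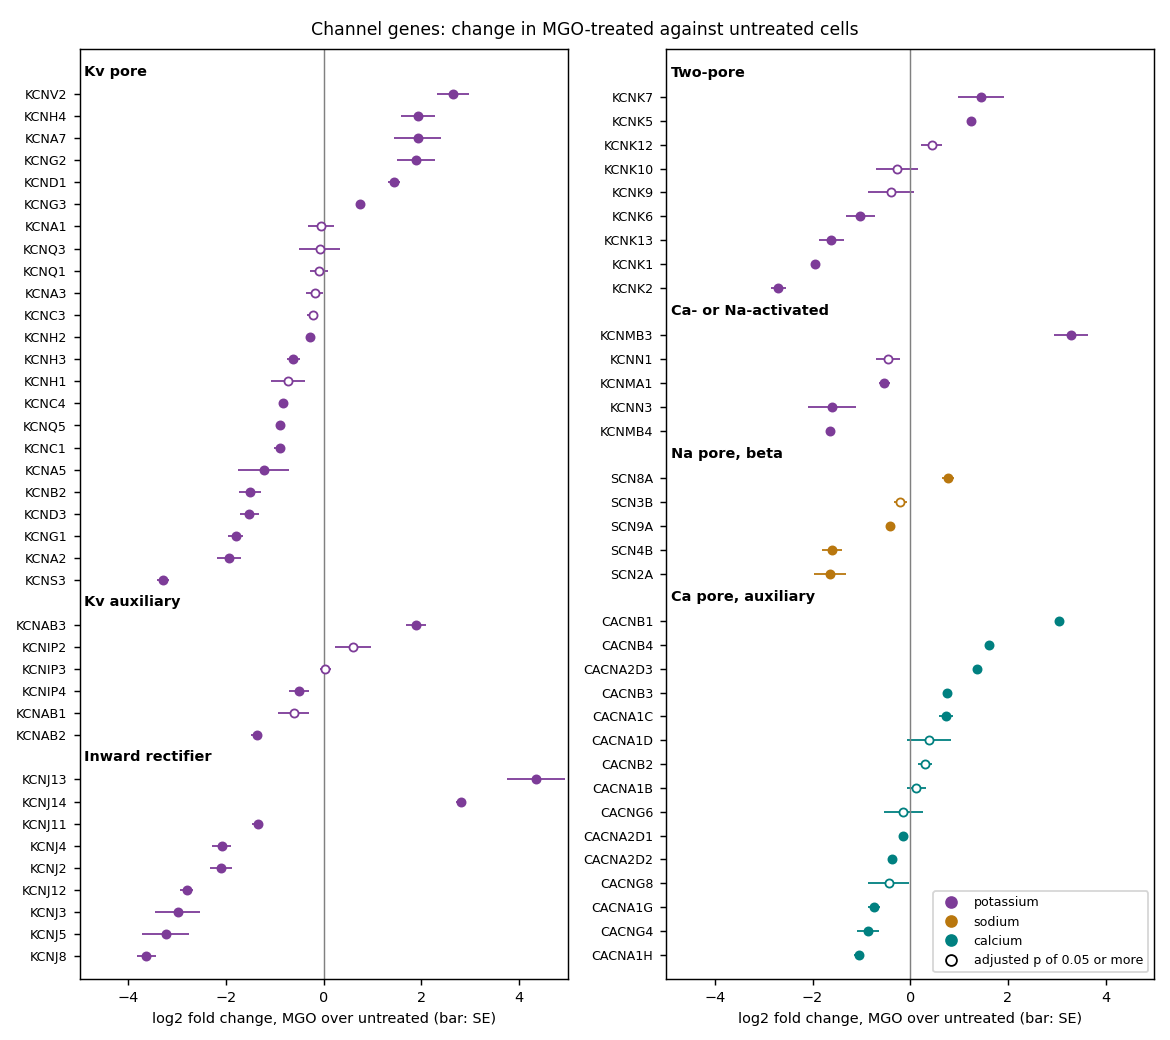
Log2 fold change, MGO over untreated, of tested channel genes (x axis, log2 units), grouped by structural class; points are edgeR estimates, bars are SE, colours give the ion, and open points have an adjusted p of 0.05 or more. The inward rectifiers lie mostly left of 0, down to -3.64 for KCNJ8, and 3 of the 4 calcium channel beta genes lie right of 0 with filled points; KCNJ13 rests on 1 count in each untreated library, so its position depends on the fit.

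The genes near the count minimum were hardly detected. Just inside it were KCNE4 with 31 counts in all libraries together, KCNJ13 with 33, SCN11A with 35 and KCNJ10 with 36, and just outside it KCNN4 with 28, CACNA1E with 27, KCNE2 with 24 and CACNA2D4 with 23. In all, 52 further symbols of these families had fewer than 30 counts, and 12 of them had no count in any library. The members not tested were KCNE4, KCNF1, KCNJ10, KCNK3, KCNK15 and SCN11A. SCN11A, a sodium channel of sensory neurons, had 6, 11 and 6 counts in MGO libraries, against 4, 4 and 4 counts in untreated libraries. KCNK15 had 0, 1 and 4 counts in MGO libraries, against 14, 9 and 8 counts in untreated libraries. These are raw counts, and the MGO libraries hold fewer reads. Members that passed the filter had to reach a minimum level in at least 3 libraries, so those that are low in both groups are missing from the counts of calls. A member that is low in 1 group could pass through the other group alone. Among called members, KCNA7, KCNG2, KCNH4, KCNJ13, KCNMB3 and KCNV2 passed through the MGO libraries alone. KCNA5, KCNJ3, KCNJ5, KCNN3 and SCN2A passed through the untreated libraries alone. The directions of their calls, and the counts that include them, partly reflect the filter.

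Summed over all members of an ion, the levels of the groups were well apart. The 60 potassium channel genes summed to 161.7, 156.4 and 160.0 CPM in MGO libraries 1, 3 and 4, against 254.4, 248.7 and 248.2 CPM in untreated libraries 1, 2 and 4, a ratio of 0.636. Much of this gap lay in KCNK1, KCNMB4 and KCNS3. Their means were 8.68, 8.42 and 1.58 CPM in MGO cells, against 33.7, 26.2 and 15.4 CPM in untreated cells. Of the tested potassium channel genes, 13 were called higher. The 8 sodium channel genes summed to 27.6 ± 0.815 CPM in MGO libraries and 35.6 ± 0.856 CPM in untreated libraries (SD, n = 3 each), a ratio of 0.777. The calcium channel genes went the other way, with 162.4, 169.7 and 159.8 CPM in MGO libraries, against 119.2, 118.8 and 120.6 CPM in untreated libraries, a ratio of 1.37. Within calcium, the beta subunit genes summed to 85.8 ± 1.43 CPM in MGO cells and 32.6 ± 0.735 CPM in untreated cells, and the pore subunit genes (CACNA1) to 16.2 ± 0.903 CPM in MGO cells and 24.6 ± 0.993 CPM in untreated cells. These sums carry no test, and in each of these 5 sums every MGO library lay on the same side of every untreated library. All channel genes together took 0.0332% to 0.0342% of the counts in MGO libraries and 0.0420% to 0.0421% in untreated libraries.

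**Figure D2:**
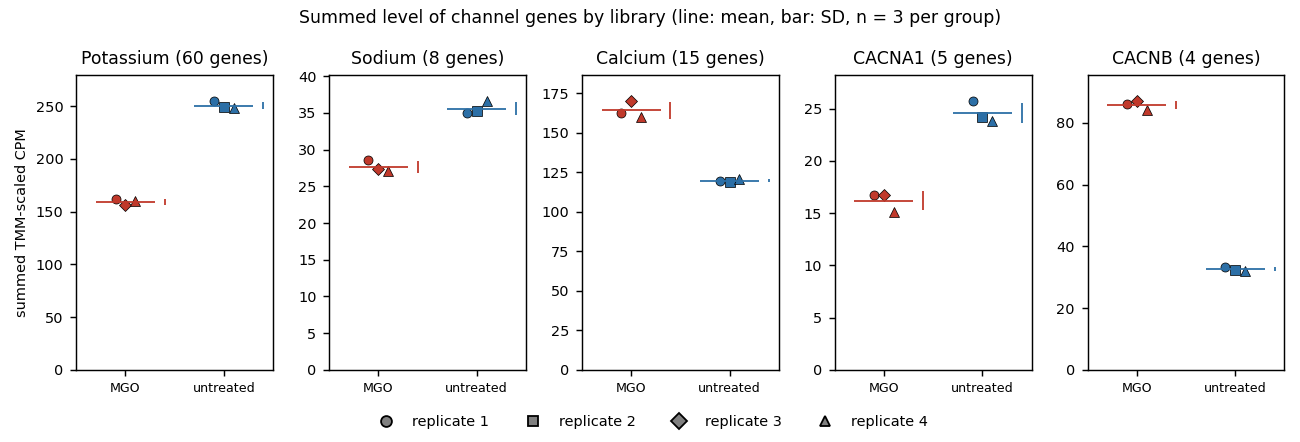
Summed level of the member genes by library (y axis, TMM-scaled CPM) for each ion and, within calcium, for pore (CACNA1) and beta (CACNB) subunits; markers are libraries by replicate number, lines are group means and bars SD. The MGO libraries lie below the untreated libraries for potassium, sodium and CACNA1, and above them for calcium and CACNB.

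Ranked by level per kilobase of exon, which allows genes of different length to be compared, most of the leading channel genes differed between the groups. In MGO cells the highest were CACNB3 with 4.88 CPM per kb, CACNB1 with 4.66, KCNK5 with 4.05, CACNA2D1 with 3.86 and KCNG3 with 3.18. In untreated cells the highest were KCNK1 with 9.30 CPM per kb, KCNMB4 with 5.37, KCNS3 with 4.93, CACNA2D1 with 4.29 and CACNB3 with 2.89. CACNA2D1 and CACNB3 are in both sets of 5, and KCNK1, the leader in untreated cells, stood at 2.39 CPM per kb in MGO cells.

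Promoter sequences are shown for 4 genes picked from these rankings whose levels moved in opposite directions. CACNB1 and KCNK5 were higher in MGO cells, and KCNK1 and KCNS3 were lower. CACNB3 and KCNMB4, which ranked above some of them, are not shown. RefSeq promoter entries (GRCh38.p14, 250 bases before to 50 after a start) matched 58 of the 83 genes, and the first listed start of each was used. The stretches of 100 bases shown lie upstream of the annotated exons, each read 5′ to 3′ on the gene's own strand. Capitals mark 3 motifs, searched on both strands: the GC box, spelled GGGCGG, the CCAAT box, spelled as named, and the TATA box, spelled TATAAA. A match on the opposite strand appears as its reverse complement, and overlapping matches run together. On GRCh38, the annotation places CACNB1 at chr17:39173456-39197703, KCNK5 at chr6:39188973-39229450, KCNK1 at chr1:233614004-233672512 and KCNS3 at chr2:17877847-18361616. The CACNB1 stretch is chr17:39197704-39197803 on the minus strand, and the KCNK5 stretch is chr6:39229476-39229575 on the minus strand. The KCNK1 stretch is chr1:233613904-233614003 on the plus strand, and the KCNS3 stretch is chr2:17877747-17877846 on the plus strand.
CACNB1: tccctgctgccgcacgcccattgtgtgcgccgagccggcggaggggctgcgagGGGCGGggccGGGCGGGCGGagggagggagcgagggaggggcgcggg
KCNK5: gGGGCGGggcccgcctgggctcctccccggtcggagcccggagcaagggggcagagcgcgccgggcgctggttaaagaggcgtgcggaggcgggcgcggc
KCNK1: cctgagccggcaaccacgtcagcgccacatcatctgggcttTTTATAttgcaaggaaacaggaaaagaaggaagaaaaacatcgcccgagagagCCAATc
KCNS3: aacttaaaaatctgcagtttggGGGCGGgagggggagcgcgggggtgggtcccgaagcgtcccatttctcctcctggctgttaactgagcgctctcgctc
The CACNB1 stretch holds 3 GC boxes, KCNK5 and KCNS3 hold 1 each, and KCNK1 holds a TATA box on the opposite strand and a CCAAT box. The KCNK1 stretch ends 102 bases before the RefSeq start, and the 250 bases before that start also hold a GC box. The shares that follow are counted over those 250 bases of each promoter. A GC box was found in 76.5% of the 17 promoters of higher channel genes and in 65.4% of the 26 of lower channel genes, against 67.2% of the promoters of tested genes and 42.3% of all 27305 promoters in the table. For the CCAAT box the shares were 29.4% of higher and 23.1% of lower channel genes, against 34.6% of tested genes and 33.0% of all promoters. For the TATA box they were 11.8% of higher and 3.85% of lower channel genes, against 5.51% of tested genes and 11.1% of all promoters. The cyclic AMP element TGACGTCA and the composite element TGATGCAA, to which ATF4 and C/EBP factors bind, were in no promoter of a higher or lower channel gene, against 2.81% and 0.387% of the promoters of tested genes. Shares that low leave few or no matches in 17 and 26 promoters, so this absence cannot set these genes apart. The promoter of KCNF1, which was not tested, held the cyclic AMP element. These matches describe letters in a fixed window, and both directions of change occurred with and without each of the 3 boxes found.

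The inward rectifier genes were mostly lower in MGO cells, with a lower median change than the other potassium classes. Of 9 tested KCNJ genes 7 were lower, 6 of them at least 4-fold, and 2 were higher. Their median log2 fold change was -2.10. KCNJ3 and KCNJ5 passed the filter through the untreated libraries alone, and KCNJ13 through the MGO libraries alone. The counts and the median include these genes, so they partly reflect the filter. KCNJ8 encodes a pore subunit of ATP-sensitive potassium channels, which link the membrane potential to the energy state of a cell. It was at 0.553, 0.376 and 0.380 CPM in MGO libraries, against 5.58, 5.20 and 5.50 CPM in untreated libraries. Its level in MGO cells was 12.4-fold lower (log2 fold change -3.64 ± 0.20 (SE), edgeR adjusted p = 3.22e-17), and each MGO library held 7 to 10 reads of it. KCNJ11, the pore subunit of the ATP-sensitive channel of pancreatic beta cells, was at 3.32, 3.49 and 3.61 CPM in MGO libraries, against 8.71, 9.78 and 8.10 CPM in untreated libraries. It was lower in all 3 MGO libraries, by 2.55-fold (log2 fold change -1.35 ± 0.11 (SE), edgeR adjusted p = 1.7e-12). ABCC8, the sulfonylurea receptor gene upstream of KCNJ11 on the same chromosome, went the other way with a log2 fold change of 1.11.

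The other inward rectifiers that fell belong to the strong rectifiers, which hold the resting potential of heart and muscle cells, and to the G-protein-gated ones, which slow the heart beat and quiet neurons. Of the strong rectifiers, KCNJ12 was at 1.49, 1.83 and 1.24 CPM in MGO libraries, against 9.85, 11.1 and 10.7 CPM in untreated libraries. This is 6.95-fold lower (log2 fold change -2.80 ± 0.13 (SE), edgeR adjusted p = 9.67e-19), with a wide gap between the groups. KCNJ12 has a near-identical copy, KCNJ18, which held 3 counts in all, so how reads were divided between them is uncertain. KCNJ2 was at 0.608, 0.483 and 0.570 CPM in MGO libraries, against 2.44, 2.53 and 2.18 CPM in untreated libraries (log2 fold change -2.10 ± 0.23 (SE), edgeR adjusted p = 5.46e-10). KCNJ4 was at 0.886 ± 0.306 CPM in MGO cells and 3.78 ± 0.227 CPM in untreated cells (log2 fold change -2.09 ± 0.19 (SE), edgeR adjusted p = 1.47e-11). KCNJ2 shares 185 exon bases with KCNJ2-AS1, an antisense gene that was at 0.0553, 0.107 and 0.0950 CPM in MGO libraries, against 1.44, 2.28 and 1.88 CPM in untreated libraries, but no source used here states the strand setting of the counting. Reads of the shared bases can therefore not be assigned to either gene. Of the G-protein-gated genes, KCNJ3 had 4, 0 and 3 counts in MGO libraries, against 46, 57 and 33 counts in untreated libraries. KCNJ5 had 1, 3 and 1 counts in MGO libraries, against 37, 49 and 30 counts in untreated libraries. The groups do not overlap for either gene, with log2 fold changes of -2.99 and -3.23 that rest on few reads in MGO cells.

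Against these, KCNJ14 and KCNJ13 were higher. KCNJ14, a further strong rectifier, was at 13.7, 13.7 and 13.4 CPM in MGO libraries, against 1.70, 1.94 and 2.16 CPM in untreated libraries. The MGO libraries were close to each other, and their mean was 7.03 times the untreated mean (log2 fold change 2.81 ± 0.10 (SE), edgeR adjusted p = 2.03e-21). KCNJ14 held 57.5% of the summed CPM per kb of the KCNJ genes in MGO cells, against 4.51% in untreated cells. Of its 4340 exon bases 350 are shared with GRWD1 on the same strand, whose log2 fold change was 0.31. KCNJ13, a weakly rectifying channel of transporting epithelia, had 11, 8 and 11 counts in MGO libraries, against 1, 1 and 1 counts in untreated libraries. The ratio of scaled levels was 23.7, with a 95% counting interval of 7.36 to 121. Of its exon bases 722 of 2977 are shared with GIGYF2 on the opposite strand, which was lower in MGO cells with a log2 fold change of -0.51. Together the KCNJ genes stood at 21.5 ± 0.282 CPM in MGO cells and 34.9 ± 1.51 CPM in untreated cells.

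Two-pore channels carry the background potassium current that keeps cells polarised. Of 9 tested KCNK genes 4 were lower, 2 higher and 3 not called. The lower share of 44.4% was near the 41.2% of all tested genes, and the higher share was 22.2%, against 41.8%. KCNK1, which encodes a weakly conducting background channel and was the highest channel gene per kilobase in untreated cells, was at 8.34, 7.62 and 10.1 CPM in MGO libraries, against 34.6, 33.3 and 33.4 CPM in untreated libraries. No MGO library came near the untreated range, and the level was 3.89-fold lower (log2 fold change -1.95 ± 0.07 (SE), edgeR adjusted p = 2.94e-21). KCNK2, a background channel that opens on stretch, heat and fatty acids, was at 0.995, 0.859 and 1.33 CPM in MGO libraries, against 6.75, 7.12 and 7.12 CPM in untreated libraries, which is 6.59-fold lower (log2 fold change -2.70 ± 0.15 (SE), edgeR adjusted p = 1.2e-16). KCNK13 and KCNK6, both of the same family, were lower as well, with log2 fold changes of -1.62 and -1.02.

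KCNK5, an alkali-activated background channel found in kidney tubules, went the other way. It was at 14.0, 15.1 and 16.5 CPM in MGO libraries, against 6.43, 6.10 and 6.74 CPM in untreated libraries. Every MGO library was above every untreated library, and the level was 2.37 times that of untreated cells (log2 fold change 1.25 ± 0.08 (SE), edgeR adjusted p = 6.06e-15). KCNK5 held 52.6% of the summed CPM per kb of the KCNK genes in MGO cells, against 12.1% in untreated cells, and KCNK1 held 31.0% in MGO cells, against 65.7% in untreated cells. KCNK7 was at 0.442, 0.644 and 0.380 CPM in MGO libraries, against 0.323, 0.125 and 0.0705 CPM in untreated libraries. It was called higher (log2 fold change 1.45 ± 0.47 (SE), edgeR adjusted p = 0.00547), but without MGO library 3 the adjusted p was 0.0678 by edgeR's quasi-likelihood test (range over all alternatives 0.000387 to 0.0996). The summed KCNK level was 28.9 ± 2.81 CPM in MGO cells and 52.4 ± 1.08 CPM in untreated cells.

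Of 5 tested genes of potassium channels that open on intracellular calcium, 3 were lower and 1, an auxiliary subunit, was higher. KCNMA1, the pore of the large-conductance channel, was at 5.58, 4.94 and 5.42 CPM in MGO libraries, against 8.19, 6.67 and 8.22 CPM in untreated libraries (log2 fold change -0.53 ± 0.11 (SE), edgeR adjusted p = 4.76e-05). KCNMB4, a beta subunit of that channel best known in brain, was at 9.50, 8.43 and 7.32 CPM in MGO libraries, against 27.9, 24.9 and 25.7 CPM in untreated libraries. It was lower in every MGO library, by 3.11-fold (log2 fold change -1.64 ± 0.08 (SE), edgeR adjusted p = 1.75e-18). KCNMB3, another beta subunit, was at 1.60, 0.913 and 1.85 CPM in MGO libraries, against 0.172, 0.0836 and 0.188 CPM in untreated libraries. It was higher in every MGO library (log2 fold change 3.29 ± 0.35 (SE), edgeR adjusted p = 5.39e-10), but 3403 of its 8979 exon bases (37.9%) are shared with PIK3CA on the opposite strand, which had a log2 fold change of 0.28. KCNN3, a small-conductance channel, had 4, 6 and 0 counts in MGO libraries, against 22, 27 and 24 counts in untreated libraries and was called lower (log2 fold change -1.60 ± 0.49 (SE), edgeR adjusted p = 0.00366). Without MGO library 4, which had no read of it, the adjusted p was 0.0513 by edgeR's quasi-likelihood test (range over all alternatives 0.00037 to 0.0513). KCNN1 of the same family was at 0.888 ± 0.223 CPM in MGO cells and 1.24 ± 0.270 CPM in untreated cells and was not called, with an adjusted p of 0.0260 without MGO library 4 and 0.0242 without untreated library 1 by edgeR's quasi-likelihood test (range over all alternatives 0.0223 to 0.681).

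**Figure D3:**
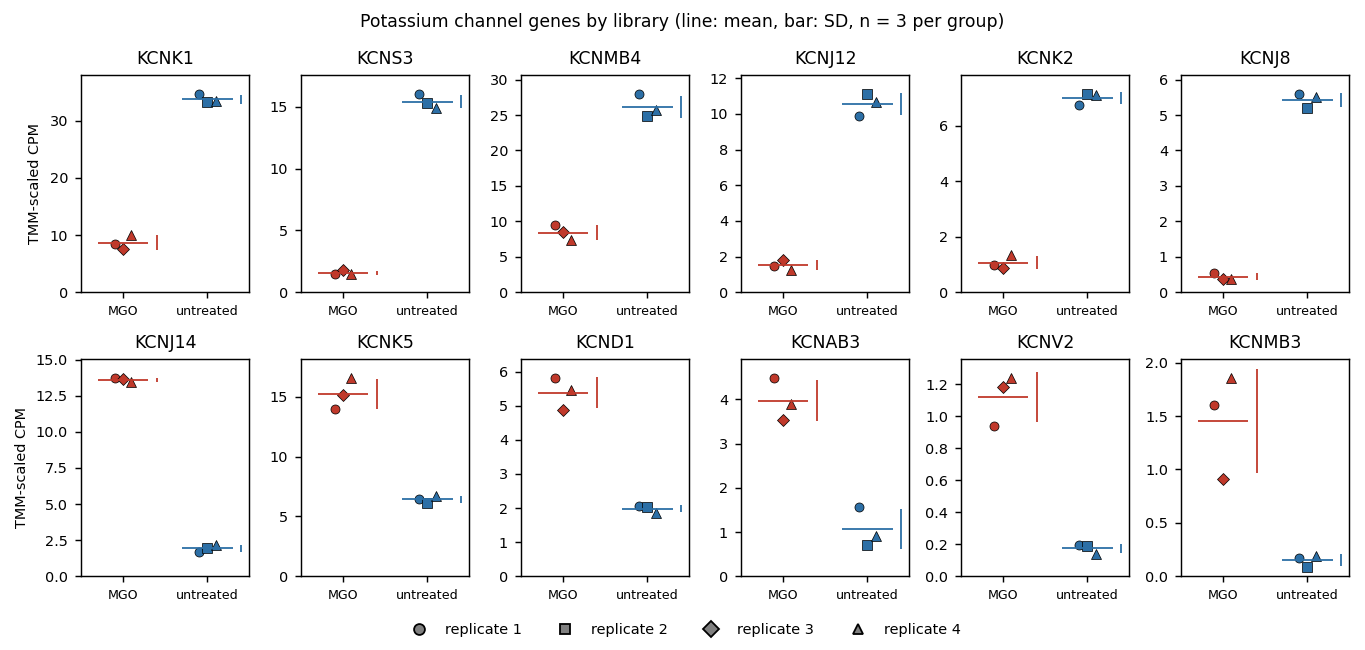
TMM-scaled CPM by library (y axis) of 6 potassium channel genes that were lower (upper panels) and 6 that were higher (lower panels) in MGO cells; markers are libraries by replicate number, lines are means and bars SD (n = 3 per group). The 2 groups do not overlap in any of the 12 panels, which for most of the genes shown was a condition of their choice.

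The voltage-gated potassium pore genes were split. Of 26 tested, 12 were lower, 7 higher and 7 not called, and the median log2 fold change was -0.25. That is 46.2% lower and 26.9% higher, against 41.2% and 41.8% of all tested genes. The class summed to 77.1 ± 1.95 CPM in MGO cells and 109 ± 2.63 CPM in untreated cells. KCNS3 had the largest fall of them. It encodes a silent subunit, which forms no channel on its own and modifies the delayed rectifiers of the KCNB family. KCNS3 was at 1.49, 1.77 and 1.47 CPM in MGO libraries, against 16.0, 15.3 and 14.9 CPM in untreated libraries, 9.77-fold lower in MGO cells with no overlap (log2 fold change -3.29 ± 0.12 (SE), edgeR adjusted p = 4.57e-22).

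The remaining silent subunits were split. KCNG1 was lower (log2 fold change -1.80 ± 0.15 (SE), edgeR adjusted p = 1.35e-12), whereas KCNG3, KCNG2 and KCNV2 were higher. KCNG3 was at 12.1, 12.8 and 11.6 CPM in MGO libraries, against 7.37, 7.58 and 6.84 CPM in untreated libraries, above the untreated range in all 3 MGO libraries (log2 fold change 0.74 ± 0.08 (SE), edgeR adjusted p = 1.28e-09). KCNV2, known from a human retinal cone disorder, was at 0.939, 1.18 and 1.24 CPM in MGO libraries, against 0.194, 0.188 and 0.141 CPM in untreated libraries (log2 fold change 2.65 ± 0.33 (SE), edgeR adjusted p = 1.21e-08). KCNG2 was at 0.774, 0.752 and 0.475 CPM in MGO libraries, against 0.151, 0.251 and 0.117 CPM in untreated libraries. KCNV2 and KCNG2 passed the filter through the MGO libraries alone, so the split of the silent subunits partly reflects the filter. KCNB2, a delayed rectifier pore to which silent subunits bind, was at 1.14 ± 0.349 CPM in MGO cells and 3.22 ± 0.777 CPM in untreated cells and was lower (log2 fold change -1.52 ± 0.22 (SE), edgeR adjusted p = 1.44e-06).

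Among the pore genes of excitable cells, KCNA2, a delayed rectifier of axons, was at 0.504 ± 0.0426 CPM in MGO cells and 1.93 ± 0.169 CPM in untreated cells (log2 fold change -1.93 ± 0.24 (SE), edgeR adjusted p = 1.59e-08). KCND3, which carries a transient outward current in heart and neurons, was at 1.03 ± 0.210 CPM in MGO cells and 2.93 ± 0.306 CPM in untreated cells (log2 fold change -1.52 ± 0.19 (SE), edgeR adjusted p = 1.49e-08). Its relative KCND1 was the reverse, at 5.80, 4.89 and 5.46 CPM in MGO libraries, against 2.05, 2.03 and 1.86 CPM in untreated libraries, with every MGO library over every untreated one (log2 fold change 1.44 ± 0.13 (SE), edgeR adjusted p = 1.26e-11). KCNC1 and KCNC4, of a subfamily known for fast firing in neurons, were lower with log2 fold changes of -0.90 and -0.83. KCNQ5, which carries a current that restrains repeated firing of neurons, was at 6.34 ± 0.121 CPM in MGO cells and 11.8 ± 0.478 CPM in untreated cells (log2 fold change -0.89 ± 0.09 (SE), edgeR adjusted p = 6.1e-11).

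KCNH2 encodes the channel that ends the cardiac action potential and is the target of many drugs that prolong the QT interval. It was at 12.2, 10.7 and 11.6 CPM in MGO libraries, against 13.2, 14.2 and 14.3 CPM in untreated libraries, a fall of 0.27 on the log2 scale with groups that do not overlap (log2 fold change -0.27 ± 0.08 (SE), edgeR adjusted p = 0.00155). With the replicate number as a block, KCNH2 had a log2 fold change of -0.21 and an adjusted p of 0.0819 by edgeR's quasi-likelihood test. Its relative KCNH3 was lower (-0.62 on the log2 scale), and KCNH4 was higher, at 0.939, 0.537 and 1.05 CPM in MGO libraries, against 0.194, 0.251 and 0.211 CPM in untreated libraries. KCNA7 was higher as well, at 0.442, 0.429 and 0.333 CPM in MGO libraries, against 0.0647, 0.125 and 0.117 CPM in untreated libraries, with fewer than 10 reads in each library. KCNA5, a delayed rectifier of the atria, had 1, 5 and 2 counts in MGO libraries, against 15, 16 and 14 counts in untreated libraries and was called lower (log2 fold change -1.22 ± 0.52 (SE), edgeR adjusted p = 0.0319), but its adjusted p was 0.147 without MGO library 1 and 0.121 without MGO library 4 by edgeR's quasi-likelihood test (range over all alternatives 0.00898 to 0.162).

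KCNQ1, which repolarises the heart and recycles potassium in epithelia, was not called. It was at 2.71, 1.83 and 1.57 CPM in MGO libraries, against 2.18, 2.21 and 2.07 CPM in untreated libraries, and the groups overlap (log2 fold change -0.10 ± 0.18 (SE), edgeR adjusted p = 0.61). KCNQ1OT1, the long noncoding RNA transcribed from the opposite strand of the KCNQ1 locus, shares 121 of the 4447 exon bases of KCNQ1. It was at 54.7, 44.1 and 39.4 CPM in MGO libraries, against 0.992, 1.07 and 1.08 CPM in untreated libraries, with a log2 fold change of 5.45, and was higher in every MGO library than in every untreated one. Reads of the shared bases could belong to either.

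Auxiliary subunits of the voltage-gated potassium channels included both directions. KCNAB2 and KCNAB3 encode cytoplasmic beta subunits with the fold of an aldo-keto reductase. KCNAB2 was at 3.76, 3.38 and 3.47 CPM in MGO libraries, against 8.80, 8.61 and 10.1 CPM in untreated libraries, and was lower (log2 fold change -1.37 ± 0.11 (SE), edgeR adjusted p = 7.68e-13). KCNAB3 was at 4.48, 3.54 and 3.90 CPM in MGO libraries, against 1.57, 0.710 and 0.916 CPM in untreated libraries, and was higher (log2 fold change 1.89 ± 0.21 (SE), edgeR adjusted p = 5.23e-08), with no overlap for either gene. KCNAB1 was at 0.483 ± 0.211 CPM in MGO cells and 0.744 ± 0.0850 CPM in untreated cells and was not called, but without MGO library 3 its adjusted p was 0.0237 by edgeR's quasi-likelihood test (range over all alternatives 0.0237 to 0.509). Of the KCNIP genes, whose calcium-binding products attach to KCND pores, KCNIP3 was at 6.24, 6.12 and 5.23 CPM in MGO libraries, against 5.82, 5.56 and 5.71 CPM in untreated libraries and was not called, and its groups overlap. KCNIP4 was at 0.995, 1.23 and 0.998 CPM in MGO libraries, against 1.44, 1.59 and 1.55 CPM in untreated libraries and was called lower (log2 fold change -0.51 ± 0.21 (SE), edgeR adjusted p = 0.0282). Its adjusted p was 0.0638 without MGO library 1, 0.0702 without MGO library 4 and 0.0614 without untreated library 2 by edgeR's quasi-likelihood test (range over all alternatives 0.00571 to 0.61). KCNE4, the only member of the KCNE family above the count minimum, was at 0.221, 0.107 and 0.238 CPM in MGO libraries, against 0.129, 0.104 and 0.211 CPM in untreated libraries.

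Of the sodium channel pore genes, which start the action potential, 3 were lower and 1 higher among 4 tested. That is 75.0% lower and 25.0% higher, against 41.2% and 41.8% of all tested genes. SCN2A passed the filter through the untreated libraries alone. SCN11A, with every MGO library above every untreated one, was not tested, so this split partly reflects the filter. SCN9A, a sodium channel of sensory neurons that mediates pain, had the highest level per kilobase of the sodium channel genes in both groups, and was at 9.39, 8.21 and 8.84 CPM in MGO libraries, against 10.4, 12.9 and 11.9 CPM in untreated libraries. It was lower by 0.41 on the log2 scale, with groups that do not overlap (log2 fold change -0.41 ± 0.09 (SE), edgeR adjusted p = 0.000118). SCN2A, a sodium channel of central neurons, had 6, 6 and 6 counts in MGO libraries, against 43, 54 and 37 counts in untreated libraries (log2 fold change -1.64 ± 0.33 (SE), edgeR adjusted p = 3.36e-05). SCN8A, found at the axon initial segment, was at 7.52, 6.87 and 6.41 CPM in MGO libraries, against 4.64, 3.36 and 4.20 CPM in untreated libraries. It was the only sodium channel gene called higher, at 1.70 times the untreated mean (log2 fold change 0.77 ± 0.12 (SE), edgeR adjusted p = 6.81e-07).

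The beta subunits of sodium channels are single-pass membrane proteins that alter gating and adhere to neighbouring cells. SCN4B was at 0.884, 1.13 and 0.618 CPM in MGO libraries, against 3.00, 2.38 and 2.56 CPM in untreated libraries, lower in every MGO library (log2 fold change -1.61 ± 0.21 (SE), edgeR adjusted p = 3.29e-08). SCN3B was at 3.04, 4.29 and 4.32 CPM in MGO libraries, against 4.44, 4.60 and 4.44 CPM in untreated libraries and was not called (log2 fold change -0.20 ± 0.13 (SE), edgeR adjusted p = 0.139), although the groups do not overlap; its MGO library 1 was below the rest. Leaving out MGO library 4 gave SCN3B an adjusted p of 0.0395 by edgeR's quasi-likelihood test (range over all alternatives 0.00599 to 1).

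Calcium channel pore genes were lower in sum, with changes in both directions. CACNA1H and CACNA1G encode low-voltage-activated (T-type) channels, which open near the resting potential. CACNA1H was at 6.74, 7.25 and 7.60 CPM in MGO libraries, against 16.5, 14.6 and 14.0 CPM in untreated libraries, 2.09-fold lower with no overlap (log2 fold change -1.06 ± 0.09 (SE), edgeR adjusted p = 1.3e-12). CACNA1G was at 3.21, 3.70 and 2.90 CPM in MGO libraries, against 5.30, 5.41 and 5.75 CPM in untreated libraries and was lower as well (log2 fold change -0.75 ± 0.12 (SE), edgeR adjusted p = 1.64e-06). CACNA1C, the L-type pore of heart and smooth muscle, was at 3.37, 3.65 and 2.95 CPM in MGO libraries, against 1.92, 2.01 and 2.04 CPM in untreated libraries, above the untreated range in every MGO library (log2 fold change 0.73 ± 0.15 (SE), edgeR adjusted p = 4.26e-05). The N-type gene CACNA1B, at 1.69 ± 0.261 CPM in MGO cells and 1.54 ± 0.0794 CPM in untreated cells, and the L-type gene CACNA1D, at 0.721 ± 0.643 CPM in MGO cells and 0.532 ± 0.0643 CPM in untreated cells, were not called. CACNA1D had 26, 10 and 4 counts in MGO libraries 1, 3 and 4, the widest relative spread of the calcium pore genes. With library 4 left out, its adjusted p was 0.0255 by edgeR's quasi-likelihood test (range over all alternatives 0.0255 to 0.993).

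The beta subunits of calcium channels are cytoplasmic proteins that bind high-voltage-activated pore subunits, promote their delivery to the membrane and shift their gating. Of 4 tested, 3 were higher and none lower, with a median log2 fold change of 1.19. CACNB1, the beta subunit of skeletal muscle channels, was at 33.6, 34.6 and 31.0 CPM in MGO libraries, against 4.44, 3.55 and 3.97 CPM in untreated libraries. Every MGO library was far above every untreated library, and the mean was 8.29 times the untreated mean (log2 fold change 3.05 ± 0.08 (SE), edgeR adjusted p = 1.18e-25). CACNB1 held 44.8% of the summed CPM per kb of the CACNB genes in MGO cells, against 14.2% in untreated cells. Of the 6 muscle markers, ACTA1, the actin of skeletal muscle, was at 4.64, 2.90 and 3.85 CPM in MGO libraries, against 0.237, 0.167 and 0.376 CPM in untreated libraries. DES averaged 0.245 CPM in MGO cells and 0.308 CPM in untreated cells, MYOG was at 0 in every library, and the other 3 held 0 to 6 counts in each. The part of these markers in the CACNB1 values was not tested.

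CACNB3, the highest of the CACNB genes per kilobase in both groups, was at 34.3, 34.7 and 35.7 CPM in MGO libraries, against 20.5, 20.7 and 20.7 CPM in untreated libraries. The 2 groups were tight and apart (log2 fold change 0.76 ± 0.05 (SE), edgeR adjusted p = 2.66e-14). CACNB4, known from brain, was at 12.9, 12.9 and 14.3 CPM in MGO libraries, against 4.74, 4.51 and 3.83 CPM in untreated libraries, 3.07 times the untreated mean (log2 fold change 1.61 ± 0.09 (SE), edgeR adjusted p = 1.86e-16). CACNB2, the main beta subunit of the heart, was at 5.42, 4.83 and 3.23 CPM in MGO libraries, against 3.73, 3.70 and 3.41 CPM in untreated libraries. It was not called (log2 fold change 0.30 ± 0.14 (SE), edgeR adjusted p = 0.0516), and its MGO library 4 lay below all the others. Without that library the adjusted p was 0.00193 by edgeR's quasi-likelihood test (range over all alternatives 0.00193 to 1).

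The alpha2delta subunits sit outside the membrane and raise the number of channels at the surface, and those encoded by CACNA2D1 and CACNA2D2 bind gabapentin. The 3 genes summed to 60.3 ± 3.27 CPM in MGO cells and 59.6 ± 2.30 CPM in untreated cells. CACNA2D1, the highest calcium channel gene per kilobase in untreated cells, was at 32.7, 36.8 and 34.8 CPM in MGO libraries, against 36.5, 39.2 and 40.3 CPM in untreated libraries. It was called lower by a small margin with overlapping groups (log2 fold change -0.15 ± 0.05 (SE), edgeR adjusted p = 0.00988), and without untreated library 4 the adjusted p was 0.0519 by edgeR's quasi-likelihood test (range over all alternatives 6.53e-10 to 1). CACNA2D2 was at 11.9, 13.0 and 11.8 CPM in MGO libraries, against 15.8, 15.2 and 16.5 CPM in untreated libraries (log2 fold change -0.37 ± 0.07 (SE), edgeR adjusted p = 2.52e-05). CACNA2D3 was at 13.5, 14.2 and 12.1 CPM in MGO libraries, against 4.98, 5.22 and 5.19 CPM in untreated libraries. CACNA2D3 was 2.59 times the untreated mean, with every MGO library over every untreated one (log2 fold change 1.37 ± 0.09 (SE), edgeR adjusted p = 2.47e-15).

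The gamma genes were low throughout. CACNG4, whose product mainly escorts AMPA-type glutamate receptors, was at 0.553, 1.18 and 1.33 CPM in MGO libraries, against 2.01, 1.76 and 1.95 CPM in untreated libraries and was lower (log2 fold change -0.87 ± 0.22 (SE), edgeR adjusted p = 0.000696). CACNG6 was at 0.387, 0.483 and 0.238 CPM in MGO libraries, against 0.517, 0.293 and 0.399 CPM in untreated libraries and CACNG8 at 0.318 ± 0.111 CPM in MGO cells and 0.428 ± 0.154 CPM in untreated cells, and neither was called.

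**Figure D4:**
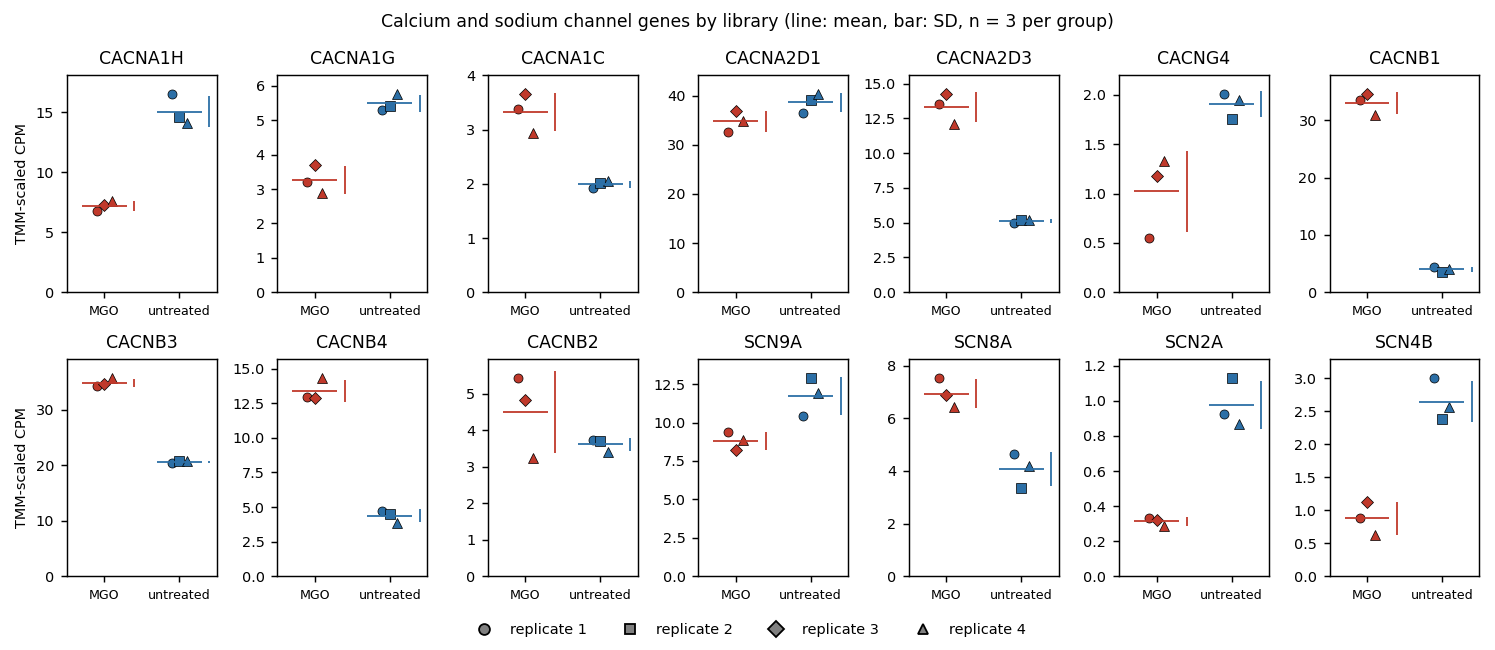
TMM-scaled CPM by library (y axis) of 10 calcium and 4 sodium channel genes; markers are libraries by replicate number, lines are means and bars SD (n = 3 per group). CACNB1 lies between 31.0 and 34.6 CPM in MGO libraries and between 3.55 and 4.44 CPM in untreated libraries, and the groups overlap in the panels of CACNA2D1 and CACNB2.

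Genes that act beside these channels were counted as lists. Of 22 tested channel partners and trafficking genes 15 were lower and 6 higher, with a median log2 fold change of -0.48. FGF13, which binds the tail of sodium channels, was at 14.3 ± 0.520 CPM in MGO cells and 54.8 ± 0.547 CPM in untreated cells. AKAP9, which anchors kinases to the KCNQ1 channel, was at 70.8 ± 1.01 CPM in MGO cells and 23.7 ± 0.957 CPM in untreated cells. CALM3, a calmodulin gene whose product is the calcium sensor of several of these channels, was lower, with a log2 fold change of -0.86. Of 22 tested ion pumps and exchangers, which build the gradients that channels run down, 17 were lower and 2 higher, with a median of -0.59. ATP2B1, a calcium pump of the plasma membrane, was at 50.8 ± 0.810 CPM in MGO cells and 117 ± 1.93 CPM in untreated cells. Over all tested genes the lower calls made up 41.2% and the higher calls 41.8%, and the lists, like the members, were chosen with earlier results known.

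Genes of other channels were called in both directions, as were all tested genes, of which 41.2% were lower and 41.8% higher. Of 36 tested genes of other cation channels 15 were lower and 12 higher, with a median of -0.03. HCN2, a pacemaker channel, was at 15.0 ± 1.04 CPM in MGO cells and 45.9 ± 0.875 CPM in untreated cells. TRPC1, a nonselective cation channel, was at 26.5 ± 2.56 CPM in MGO cells and 8.38 ± 0.744 CPM in untreated cells. Of 16 tested genes of calcium release and store-operated entry 10 were lower and 4 higher. ORAI2, a pore of store-operated entry, was at 16.7 ± 0.516 CPM in MGO cells and 57.3 ± 2.96 CPM in untreated cells. RYR2, the calcium release channel of heart muscle, was at 17.8 ± 1.11 CPM in MGO cells and 5.05 ± 0.232 CPM in untreated cells. Of 29 tested chloride and anion channel genes 14 were lower and 10 higher. TTYH3, of the tweety family, was at 69.7 ± 1.39 CPM in MGO cells and 294 ± 5.71 CPM in untreated cells. REST represses many neuronal channel genes in cells outside the nervous system. It was at 52.7 ± 2.26 CPM in MGO cells and 51.7 ± 1.57 CPM in untreated cells and was not called (edgeR's quasi-likelihood test, adjusted p = 0.594), and of the 14 genes of REST and its partners 7 were lower and 5 higher.

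The called members differed in gene length. The median span in the annotation was 24388 bases for higher members, 72468 bases for lower members and 88780 bases for members not called. Over all tested genes it was 26834 bases for higher and 40676 bases for lower genes. Those medians cover only the genes matched in the annotation, 5694 of 7282 higher and 6316 of 7182 lower genes. These values are descriptions, and the part of gene length in the levels was not tested.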

How the data were processed

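The authors deposited 1 table of raw, unnormalized counts by gene symbol for each library. HTSeq 0.9.1, STAR 2.4, Trim Galore and Picard, with hg38, are named per the submitters' processing notes, which name neither the annotation nor the strand setting. Per the labels' protocols, libraries were poly(A)-selected and sequenced as paired reads. Here, edgeR 4.0.16 in R 4.3.3 tested all 6 libraries in 1 fit: a filterByExpr filter (17415 genes kept), scaling by TMM, glmQLFit with robust shrinkage, the two-sided glmQLFTest with no covariate, and Benjamini-Hochberg adjustment over all tested genes at 0.05. Levels are TMM-scaled CPM computed here. Sums over genes carry no test, and counting intervals and levels cover no PCR duplicates, since no molecular identifiers were used. Rows that carry a date in place of a symbol (29) were not named.

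The members and gene lists were chosen with earlier results of these data known. Values in every library are given for the 2 highest members of each structural class, the 5 largest rises and falls of each ion with non-overlapping groups and a mean of at least 0.5 CPM, and members with overlapping genes; genes of lists are the 4 with the smallest p, from which some are shown, and REST. Further members with few reads were named after their values were seen. Coordinates, exon lengths and overlaps come from GENCODE release 29 (GRCh38), which matched all 83 members. Within each group no pair of libraries agreed within sampling noise (chi-square per degree of freedom of 1.88 to 14.7). Alternatives were other scalings, filters, tools (limma voom 3.58.1, DESeq2 1.42.0), a fold of 1.5, thinning the untreated reads, a replicate block and leaving out libraries. The test was tried on simulated data first. Some genes are counted in the totals but not reported here by name or in the plots.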

Additional observations from a re-analysis of the deposited data

How the results depend on the processing

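Of the 77 tested channel genes 53 had the same call in every alternative run on them, and no called gene changed sign in any; the fitted sign of 8 uncalled genes did. Under a filter of 1 CPM in every library, fewer genes were tested: 24 potassium, 5 sodium and 11 calcium channel genes. Of these, 6 potassium channel genes were called higher and 14 lower, 1 sodium higher and 2 lower, and 6 calcium higher and 3 lower. Of all 12790 genes tested under this filter, 5474 were higher and 5589 lower. With no filter on low counts 2 sodium channel genes were higher. Against a fold of 1.5, 13 potassium channel genes were higher and 22 lower, 1 sodium higher and 3 lower, and 4 calcium higher and 1 lower. Over all genes 4363 were higher and 3942 lower at that fold. Leaving out each library in turn gave 11 to 13 potassium channel genes higher and 26 to 29 lower, 1 to 2 sodium channel genes higher and 4 to 5 lower, and 5 to 7 calcium channel genes higher and 4 to 5 lower; the sodium gene gained without MGO library 1, 3 or 4, or without the filter, was SCN11A, which is then tested. Scaling by library size alone moved the median of all genes by -0.11 on the log2 scale, and TMM without the filter moved it by -0.18; both added 4 potassium channel genes to the lower calls, giving 32 in each. The replicate number as a block gave 12 potassium channel genes higher and 27 lower and the same sodium and calcium counts. Same-numbered libraries did not deviate together (correlations 0.02 and -0.0078). Only the numbers 1 and 4 occur in both groups, so these correlations cannot decide whether the numbers pair the samples. KCNH2, KCNIP4 and KCNK7 lost their calls under the block (adjusted p 0.0819, 0.0637 and 0.0996 by edgeR's quasi-likelihood test), and KCNAB1 gained a call as lower (0.0439). KCNA5, KCNIP4 and CACNA2D1 lost theirs under DESeq2's Wald test (adjusted p 0.115, 0.112 and 0.0639). The cause of these differences was not tested. MGO libraries held fewer reads, so low members are measured there with larger counting error.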
